A study of Mus musculus with 51 samples.

Results

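Teneurins, latrophilins and FLRT proteins form a set of cell-surface adhesion partners, and 10 genes of these families were followed here in mouse hematopoietic stromal lines: the teneurins Tenm1, Tenm2, Tenm3 and Tenm4, the FLRT genes Flrt1, Flrt2 and Flrt3, and the latrophilins Adgrl1, Adgrl2 and Adgrl3. Each was read through probe sets that name a single gene symbol, and of a gene's several probe sets the brightest on average stood for it. All 10 genes were measured, among 19938 genes in all. The family was chosen by the differences of Tenm3 and Adgrl2 between AFT024 and BFC012, and of Adgrl2 between BMC9 and BMC10, so those 3 values are given as a description without a test.

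Signal was measured on 51 Affymetrix mouse gene 1.0 ST arrays in 17 groups of 3, from lines that were graded by whether they sustain hematopoietic stem and progenitor cells in culture. From the aorta-gonad-mesonephros region (AGM) of (CBAxC57BL/10)F1 embryos at day 11 came UG26.1B6 (supportive), UG26.3B5 (less supportive), AM14-1C4 and AM30-3F4 (both supportive). C57BL/6 fetal liver (FL) at embryonic day 14.5 gave the supportive lines AFT024 and 2012 and 3 non-supportive ones, AFT011, BFC and BFC012. From adult bone marrow (BM) came BMC9 (supportive) and BMC10 (less supportive), both labelled H2ts6, and 14F1-1 (supportive, BALB/c), while OP9 (supportive) came from (C57BL/6xC3H)F2-op/op fetal calvaria. Confluent cultures were grown at 33 °C, except 14F1-1 and OP9 replicates 1 and 2 at 37 °C. In 4 further groups CD45-negative stroma was sorted from AFT024 or BFC012 cultures at 4 days, which had been grown either together with KLS cells (c-kit+Sca1+Lin- progenitors of bone marrow) or alone. Each group stands for a single clone or line, the labels do not say whether BFC and BFC012 are the same clone, and whether replicate arrays came from different cultures is not stated, so a p-value here covers the spread among arrays.

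Teneurins are large single-pass proteins whose outer part reaches across the gap between cells and binds latrophilins, which are adhesion G protein-coupled receptors. FLRT proteins, with leucine-rich repeats, bind latrophilins too, and also bind the netrin receptors of the Unc5 family. The partners are best known from axon guidance and synapse formation, where FLRT and teneurin can occupy the same latrophilin, and latrophilins signal through G proteins such as the G12/13 class.

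The deposited values were log2 signals that had been normalized in 4 separate sets: the UG26, AFT024, BFC012 and BMC lines (18 arrays), OP9 with BFC (6 arrays), 14F1-1, 2012, AFT011 and the AM lines (15 arrays), and the sorted stroma (12 arrays). Levels are compared only within a set, means are given ± SD over 3 arrays, and no gene's level is set against another's. As a coarse check of the labels, 6 to 10 of 11 mesenchymal stroma markers had a group mean above the median of all genes in every group, against 1 or 2 of 16 hematopoietic markers and 0 of 6 endothelial markers. Of 8 mesothelial markers 1 to 6 lay above it, with 6 in BFC012 and in AFT011. Of 6 neural and glial markers 0 to 3 did. In the sorted set, replicate 1 of 3 groups stood apart: its mean correlation with the other arrays of its group was 0.980 in AFT024 grown alone, 0.976 in BFC012 grown alone and 0.977 in AFT024 grown with KLS, while the other 9 sorted arrays lay between 0.983 and 0.990. Results on sorted stroma are therefore given with and without replicate 1 of each sorted group.

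Tenm3 and Adgrl2 carried the largest differences between lines of a set, up to 6.12 and 5.48 on the log2 scale between group means, so the sequences before an annotated start of each are shown. RefSeq (GRCm38.p6) gave start-site windows for 9 of the 10 genes. Tenm3 spans chr8:48225665-49522824 and Adgrl2 chr3:148815586-148989096. The stretches shown are the 250 bases upstream of that start, 5′ to 3′, on the minus strand at chr8:48674691-48674940 for Tenm3 and at chr3:148954636-148954885 for Adgrl2. Capitals mark motif matches.
Tenm3: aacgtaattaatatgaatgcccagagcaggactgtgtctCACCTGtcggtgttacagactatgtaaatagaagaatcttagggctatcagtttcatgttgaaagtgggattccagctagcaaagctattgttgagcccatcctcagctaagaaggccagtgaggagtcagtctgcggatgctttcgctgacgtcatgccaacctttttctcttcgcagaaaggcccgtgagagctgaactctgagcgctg
Adgrl2: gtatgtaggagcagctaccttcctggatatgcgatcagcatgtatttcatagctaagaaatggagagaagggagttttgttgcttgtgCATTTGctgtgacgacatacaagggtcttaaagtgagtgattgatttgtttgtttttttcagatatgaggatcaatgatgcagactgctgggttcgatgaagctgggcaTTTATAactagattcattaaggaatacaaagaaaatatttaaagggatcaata
Both windows lie inside their genes, 848.1 kb and 34.5 kb downstream of the 5′ end of the annotated span of Tenm3 and Adgrl2. Searched on both strands were the GC box, GGGCGG, the box CCAAT, the TATA box, spelt TATAAA, the E-box, spelt CANNTG, the AP-1 site, spelt TGANTCA, and the TEAD site, spelt GGAATG. The Tenm3 window held 1 E-box at position -211 relative to the start. The Adgrl2 window held 1 E-box at -162 and 1 TATA box, on the opposite strand, at -53, and the matches did not overlap. Over all 32851 windows of that length, 66.2% held an E-box and 12.4% a TATA box. The other 4 motifs were not in these windows. Where the probe sets lie along the genes was not analysed here.

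Among the teneurins Tenm3 differed most between lines, Tenm4 stood out in BMC9, and no difference passed for Tenm1 or Tenm2. Tenm3, which in mice directs the matching of axons with their targets in the visual system and hippocampus, was high in the non-supportive FL lines and lower in every other line of their sets. In the confluent FL pair its arrays read 5.32, 5.43 and 5.63 in AFT024, against 11.34, 11.38 and 11.45 in BFC012. All 3 BFC012 arrays lay above all 3 AFT024 arrays, and the difference was -5.93 (SE 0.0828). Since this value helped to choose the genes, it carries no test. Groups next to each other in the order of levels are called different where the test passed and their arrays did not overlap. In that set BFC012 stood 5.80 above the next line, UG26.1B6, and the 5 lines other than BFC012 had means between 5.26 and 5.59.

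The same gene was then read in the other FL lines. In the other FL pair Tenm3 read 7.03, 6.99 and 6.98 in 2012, against 10.44, 10.17 and 10.45 in AFT011. The arrays did not overlap, and Tenm3 was 10.2-fold lower in 2012 (difference -3.35, SE 0.0828, limma adjusted p = 5.20e-26). In the set of the calvarial line it read 4.57, 4.24 and 4.49 in OP9, against 8.72, 8.82 and 8.96 in BFC. Again all BFC arrays were above all OP9 arrays, a 21.1-fold lower level in OP9 (difference -4.40, SE 0.0828, limma adjusted p = 2.96e-29), although tissue and strain, and for OP9 replicates 1 and 2 the culture temperature, also differ from BFC and cannot be told apart from support. BFC may be the clone BFC012 whose level helped to choose the genes, so its values for Tenm3, and for Adgrl2, may not be independent of that choice.

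Elsewhere Tenm3 moved by less. UG26.1B6 arrays read 5.66, 5.52 and 5.60, against 5.29, 5.23 and 5.28 in UG26.3B5, without overlap and with a difference of 0.33 (SE 0.0828, limma adjusted p = 0.00817, and 0.0543 with the pair's 6 arrays fitted alone). Both group means, 5.59 and 5.26, lay below the lower quartile of gene signals in their set, 5.72. AM14-1C4 arrays read 7.02, 7.09 and 7.08, against 6.16, 6.26 and 6.23 in AM30-3F4, again without overlap (difference 0.85, limma adjusted p = 2.79e-10). Both AM lines are labelled supportive, so a Tenm3 difference also occurred between lines of the same grade. In 14F1-1 the arrays read 6.21, 6.05 and 6.22, and the difference from 2012 was -0.84 (limma adjusted p = 2.84e-10). BMC9 averaged 5.41 ± 0.04 and BMC10 5.40 ± 0.06, with overlapping arrays and adjusted p = 0.943 in the limma fit. In the order of the set of 14F1-1, 2012, AFT011 and the AM lines, AFT011 was highest, AM14-1C4 and 2012 followed without a difference beyond their spread, and AM30-3F4 and 14F1-1 were lowest, also without one.

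**Figure D1:**
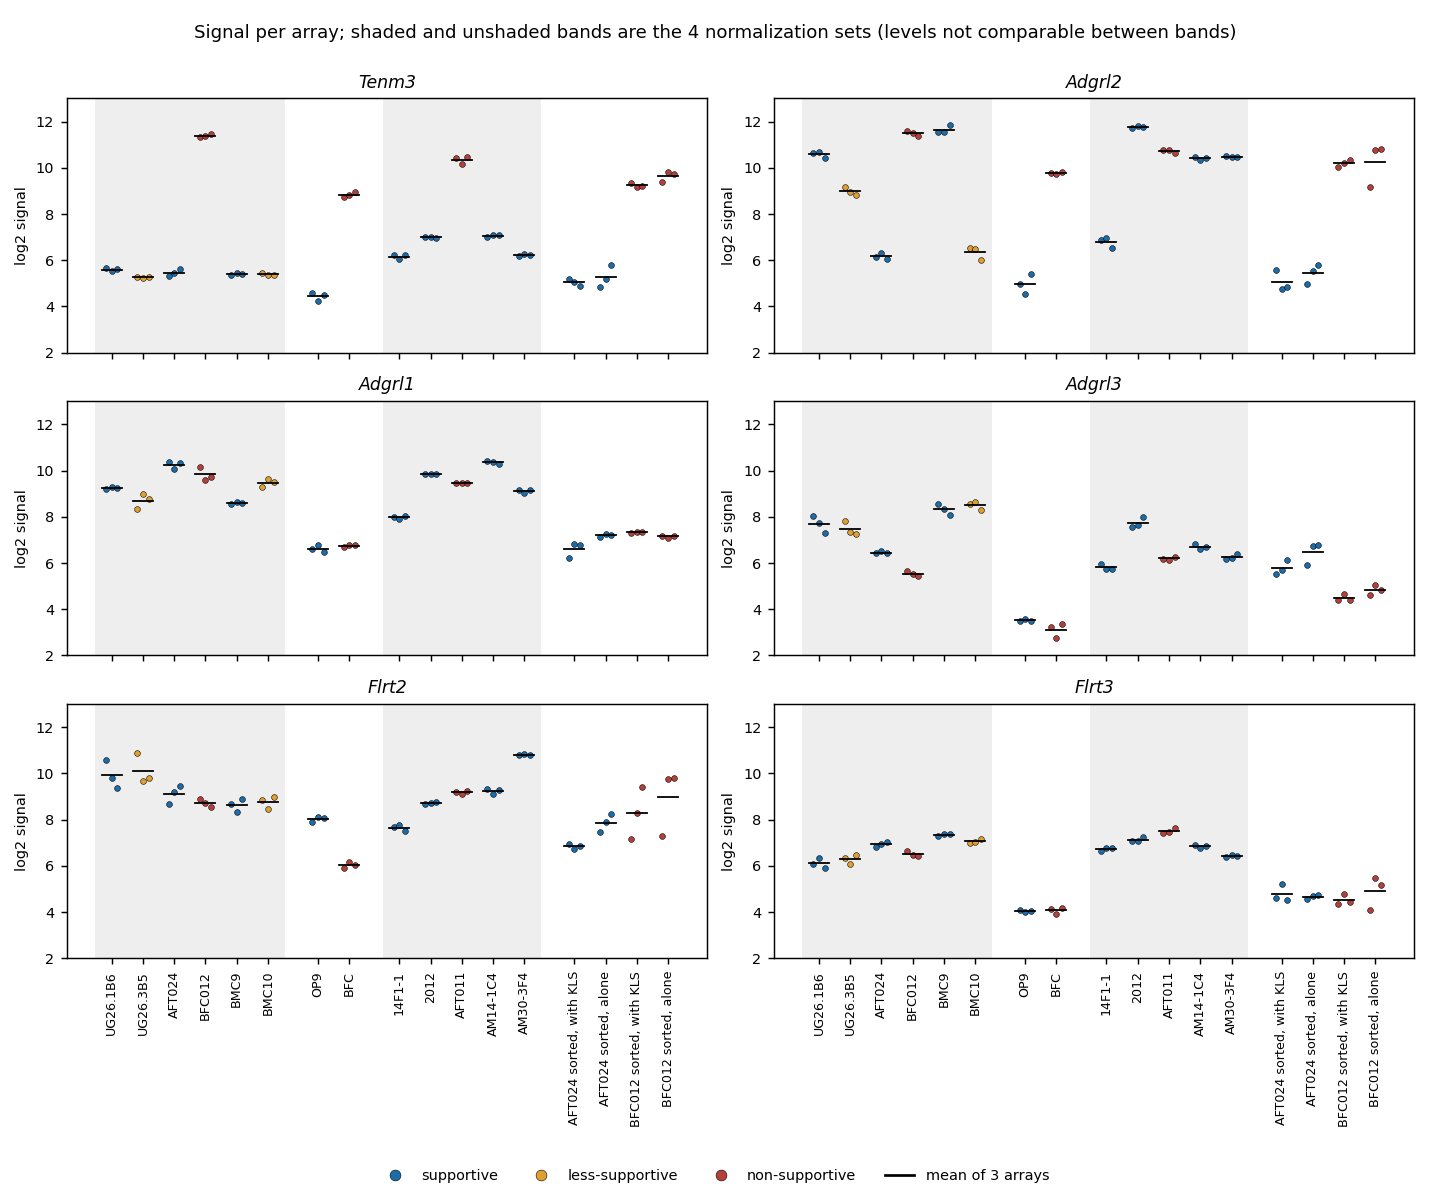
Log2 signal of 6 genes (vertical axes) in each of the 3 arrays of the 17 groups (horizontal axes), coloured by the labelled support, with a bar at the mean and alternating bands for the 4 normalization sets. Tenm3 is high in BFC012, BFC and AFT011 and in both sorted BFC012 groups, while Adgrl2 is low in AFT024, BMC10, OP9 and 14F1-1.

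Markers of mesothelium, the lining of body cavities and organs, moved with Tenm3 in the comparisons with a non-supportive FL line. The summed linear signal of 8 mesothelial markers ran from 2577 to 3509 in AFT024, against 5490 to 6527 in BFC012, and 5 of the 8 were lower and 2 higher in AFT024 (12.9% and 15.6% of all genes). It ran from 1218 to 1464 in 2012, against 8250 to 8907 in AFT011, with 5 of 8 lower and 1 higher in 2012 (14.1% and 13.4% of all genes). In OP9 it ran from 277.0 to 296, against 660 to 689 in BFC, with 4 of 8 lower and 0 higher in OP9 (16.9% and 17.5% of all genes). Upk1b, a uroplakin of mesothelial cells, averaged 5.86 in AFT024, against 11.04 in BFC012, and 5.96 in 2012, against 11.78 in AFT011. Not every marker moved that way: Msln, the mesothelial surface protein mesothelin, was higher in AFT024 by 2.30. In the UG26 pair, the AM lines and 14F1-1 against 2012, where Tenm3 also passed, 0 of the 8 markers were higher and 1 lower in each. Of all genes 4.34% were higher and 4.22% lower in the UG26 pair. The shares were 15.9% and 15.8% in the AM lines and 18.1% and 18.5% in 14F1-1 against 2012. The lower marker was Krt19, a keratin, each time. It was lower in UG26.1B6 and AM14-1C4, which had more Tenm3, and in 14F1-1, which had less. In the BMC pair 0 markers were higher and 2 lower in BMC9 (7.28% and 8.18% of all genes), while Tenm3 did not pass. Their sums ran from 976 to 1044 in BMC9, against 2254 to 2619 in BMC10. In bulk RNA, fewer cells of a type and less RNA per cell cannot be told apart, and the part of these markers in the Tenm3 result was not tested.

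The 3 genes whose pattern over the 17 group means was closest to Tenm3 were Gpm6a, a neuronal membrane glycoprotein (Pearson r = 0.978), Foxa2, a forkhead transcription factor (0.975), and Akap5, an anchor protein of protein kinase A (0.960). These are the highest values among 1540 genes whose group means spanned at least 2 log2 units in some set, with each set's mean taken off. The groups are not independent points, since they share normalization within a set and AFT024 and BFC012 each occur in 3 groups. Gpm6a averaged 5.21 in AFT024, against 9.75 in BFC012, and 5.57 in 2012, against 10.09 in AFT011.

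Tenm4 acts in mouse gastrulation and myelination. BMC9 arrays read 8.92, 7.95 and 8.20, against 7.73, 7.56 and 7.58 in BMC10. All BMC9 arrays were higher, replicate 1 by far the most. The difference was 0.73 (SE 0.139, limma adjusted p = 0.000195), although it did not pass with the pair's 6 arrays fitted alone (limma adjusted p = 0.102). Without BMC9 replicate 1 it was 0.45 (limma adjusted p = 0.00436). In the UG26 pair Tenm4 averaged 7.77 ± 0.01 in UG26.1B6, against 7.50 ± 0.05 in UG26.3B5, a difference of 0.27 that did not pass, but did with the pair's 6 arrays fitted with the replicate number as a block (limma adjusted p = 0.0463). In the BMC pair the other Tenm4 probe set differed by 1.30 in the direction of the one used, also with no overlap. BMC9 was also above UG26.1B6, the next line of its set, by 0.58 (limma adjusted p = 0.00148). In the other sets and among the other 5 lines of this set no neighbouring groups in the order of Tenm4 levels differed, with means from 7.50 to 7.77 in those 5 lines and from 7.72 to 7.89 in the set of 14F1-1, 2012, AFT011 and the AM lines. The other probe set, given no test, was without overlap in some contrasts where the one used overlapped. These were 2012 against AFT011 (0.50), 14F1-1 against 2012 (-0.33) and AFT024 against BFC012 (0.29). The AM lines (0.12) and BFC012 with KLS cells against alone (0.21) were the others.

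Tenm1, on the X chromosome, and Tenm2, on chromosome 11, both known from neuronal circuits, showed no difference that passed. Tenm1 was dim throughout: in all 17 groups its mean lay below the lower quartile of gene signals in the set. Within a set the group means of Tenm1 spanned at most 0.16 and those of Tenm2 at most 0.25. The SD within a group reached 0.18 for Tenm1, in sorted stroma, and 0.25 for Tenm2. The widest Tenm1 span lay in another set, between UG26.1B6, at 5.50 ± 0.06, and UG26.3B5, at 5.34 ± 0.04. The arrays of these lines did not overlap for Tenm1 or for Tenm2. Of 13 pairs of neighbours in the order of levels, 0 were different for Tenm1 and 0 for Tenm2, and neither gene passed the limma test in any of the 11 contrasts. Their smallest unadjusted p over those contrasts were 0.0856 for Tenm1 and 0.108 for Tenm2.

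**Figure D2:**
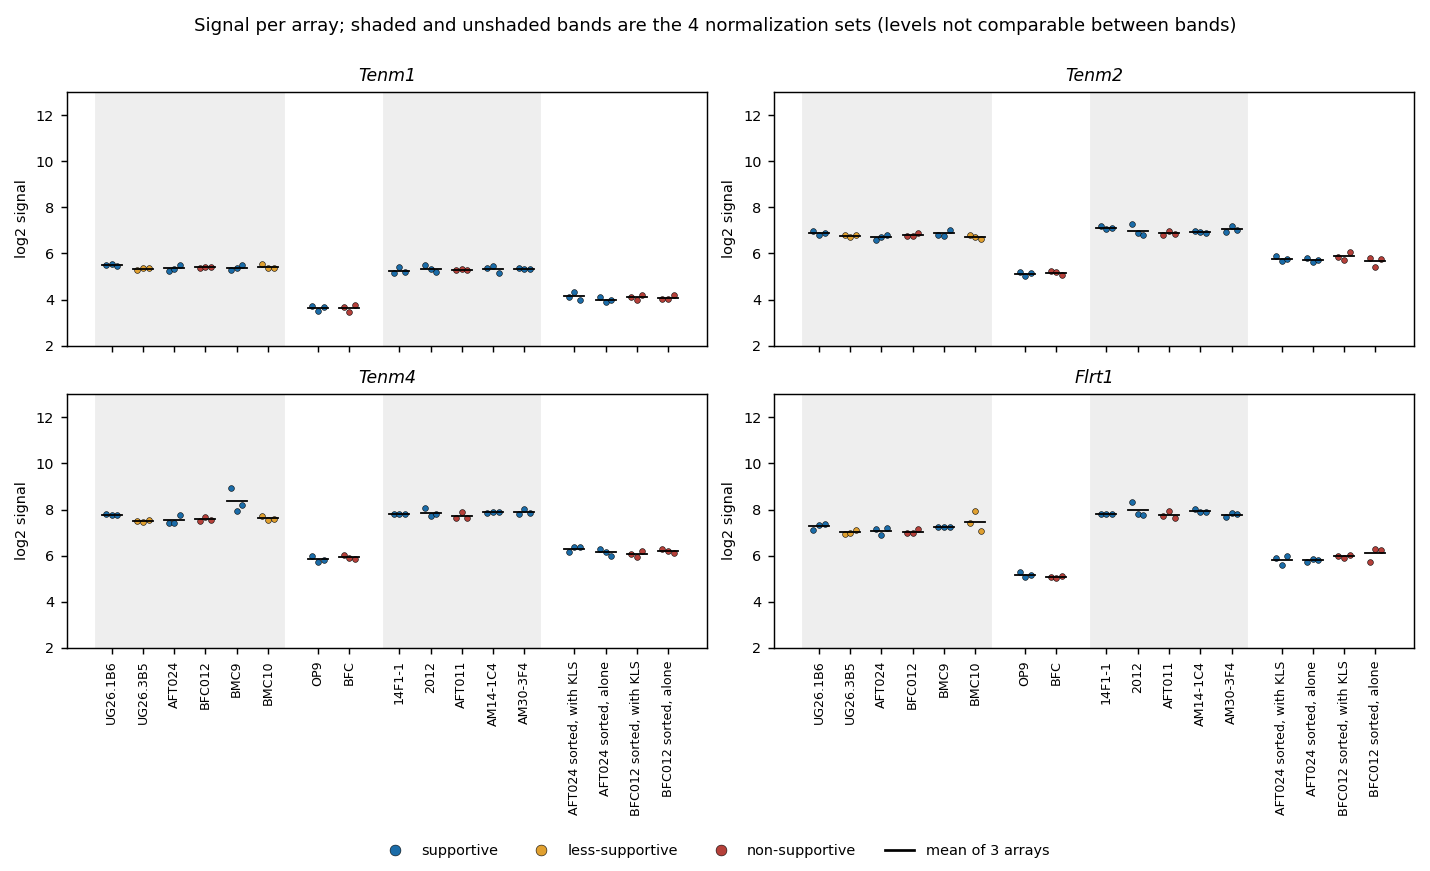
Log2 signal of Tenm1, Tenm2, Tenm4 and Flrt1 (vertical axes) in each array of the 17 groups (horizontal axes), drawn like the plot of the 6 variable genes and on the same vertical range. Tenm4 in BMC9, with arrays at 7.95 to 8.92, is the only group that departs from its neighbours by more than their spread and the test's threshold.

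Of the FLRT genes, Flrt2 differed most, Flrt3 differed by smaller steps, and Flrt1 passed in no contrast. Flrt2, which in mice guides migrating neurons through Unc5 receptors and is needed in the developing heart, read 7.90, 8.10 and 8.09 in OP9, against 5.89, 6.18 and 6.03 in BFC. The arrays were far apart, a 3.99-fold higher level in OP9 (difference 2.00, SE 0.230, limma adjusted p = 8.87e-09). Between the supportive AGM lines it read 9.33, 9.11 and 9.29 in AM14-1C4, against 10.78, 10.84 and 10.79 in AM30-3F4. AM30-3F4 was higher in all arrays (difference -1.56, SE 0.230, limma adjusted p = 1.13e-06).

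In 14F1-1 Flrt2 read 7.68, 7.76 and 7.50, against 8.67, 8.74 and 8.77 in 2012, lower in all 14F1-1 arrays (difference -1.08, limma adjusted p = 0.000230). AFT011 arrays, at 9.21, 9.10 and 9.23, lay above those of 2012 without overlap. That difference of -0.46 (SE 0.230) did not pass (limma adjusted p = 0.140). It did pass with the pair's arrays fitted with the replicate number as a block (limma adjusted p = 0.00523). Same-numbered replicates did not deviate together in that pair. Its 6 arrays fitted without a block also gave 6 genes of the family in place of 5. Within the UG26, FL and BMC set the pairs did not pass. UG26.1B6 arrays read 10.58, 9.78 and 9.38, against 10.87, 9.68 and 9.78 in UG26.3B5, with replicate 1 high in both lines and overlapping ranges (difference -0.20, adjusted p = 0.687 in the limma fit). AFT024 averaged 9.10 ± 0.41 and BFC012 8.72 ± 0.18, and BMC9 averaged 8.64 ± 0.28 and BMC10 8.77 ± 0.28. In the order of Flrt2 levels, 3 of 13 pairs of neighbouring groups passed without overlap: OP9 over BFC, AM30-3F4 over AM14-1C4, and 2012 over 14F1-1. UG26.1B6 over AFT024 passed too (difference 0.81, limma adjusted p = 0.00593), with overlapping arrays. The Flrt2 pattern over the 17 group means was most like that of Fbxl7, a ubiquitin ligase subunit (r = 0.763), Meis2 (0.741) and Sox11 (0.736), both transcription factors.

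Flrt3, which promotes FGF signalling in Xenopus embryos and binds latrophilins at mouse synapses, differed by at most 1.24 between group means of a set. AFT024 arrays read 6.83, 6.96 and 7.05, against 6.62, 6.46 and 6.43 in BFC012, all higher in AFT024 (difference 0.45, SE 0.0967, limma adjusted p = 0.000413). The sign turned in the other FL pair, with 7.06, 7.08 and 7.27 in 2012, against 7.42, 7.46 and 7.63 in AFT011 (difference -0.37, limma adjusted p = 0.00367). Neither pair overlapped. BMC9 arrays read 7.29, 7.39 and 7.38, against 6.97, 7.04 and 7.17 in BMC10, a difference of 0.29 with a limma adjusted p of 0.0355 that did not hold under 8 of 13 alternatives. AM14-1C4 averaged 6.85 ± 0.06, against 6.42 ± 0.06 in AM30-3F4 (difference 0.44, limma adjusted p = 0.000445), and 14F1-1 averaged 6.72 ± 0.08, which was below 2012 (difference -0.42, limma adjusted p = 0.000627). In the order of that set AFT011 came above 2012, 2012 above AM14-1C4 and 14F1-1 above AM30-3F4, each step passing, while AM14-1C4 and 14F1-1 did not differ beyond their spread.

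Flrt1, a mainly neural member of the family, passed in none of the 11 contrasts, and 0 of its 13 neighbouring pairs differed. Its group means spanned 0.46 or less in each set. BMC10 replicate 2 was its highest array in its set, at 7.94, against 7.41 and 7.08 in replicates 1 and 3.

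Of the latrophilins, Adgrl2 differed most from line to line, and it was higher in the supportive line of some pairs and lower in that of others. Adgrl2, a latrophilin that in chick takes part in heart valve formation and in mouse in synapse formation, read 6.13, 6.32 and 6.04 in AFT024, against 11.61, 11.52 and 11.37 in BFC012. In the BM pair it read 11.53, 11.56 and 11.85 in BMC9, against 6.53, 6.50 and 6.00 in BMC10. The low line was thus the supportive AFT024 in FL and the less supportive BMC10 in BM, with differences of -5.33 and 5.30 (SE 0.145 each), both given without a test. In that set BMC9 and BFC012 were highest, UG26.1B6 and UG26.3B5 followed, and BMC10 and AFT024 were lowest.

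In the AGM pair Adgrl2 read 10.66, 10.67 and 10.41 in UG26.1B6, against 9.17, 8.94 and 8.81 in UG26.3B5, higher in all UG26.1B6 arrays by 3.04-fold (difference 1.60, SE 0.145, limma adjusted p = 4.95e-10). It read 11.71, 11.80 and 11.75 in 2012, against 10.76, 10.76 and 10.62 in AFT011, again higher in all supportive arrays (difference 1.04, limma adjusted p = 8.34e-07). OP9 went the other way, with 4.99, 4.52 and 5.39, against 9.76, 9.75 and 9.83 in BFC. That was 28.1-fold lower in OP9 (difference -4.81, SE 0.145, limma adjusted p = 1.23e-23).

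Supportive lines differed from each other too. The 14F1-1 arrays read 6.90, 6.97 and 6.52, against 11.71, 11.80 and 11.75 in 2012, a 31.1-fold lower level (difference -4.96, SE 0.145, limma adjusted p = 3.59e-24). Tissue, strain and culture temperature differ between 14F1-1 and 2012 and cannot be told apart. The AM lines overlapped, with 10.48, 10.35 and 10.41 in AM14-1C4, against 10.49, 10.45 and 10.49 in AM30-3F4 (difference -0.07, SE 0.145, adjusted p = 0.855 in the limma fit). In that set 2012 was highest, AFT011, AM30-3F4 and AM14-1C4 followed with no difference between neighbours that passed, and 14F1-1 was lowest.

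Adgrl2 had 8 probe sets, which share the arrays and are not replicates, and they gave the same direction in 6 of the 7 confluent contrasts. All 8 were lower in AFT024 than in BFC012, by differences from -5.88 to -1.99, and all 8 were higher in BMC9 than in BMC10, by 2.25 to 6.13. All 8 were higher in UG26.1B6 than in UG26.3B5 (0.67 to 1.60) and in 2012 than in AFT011 (0.63 to 1.26), and all 8 were lower in OP9 than in BFC (-4.81 to -1.24) and in 14F1-1 than in 2012 (-5.79 to -1.52). In 2012 against AFT011 the arrays of both lines stayed apart for 6 of the 8. Between the AM lines 3 probe sets were higher and 5 lower, within -0.24 to 0.18.

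**Figure D3:**
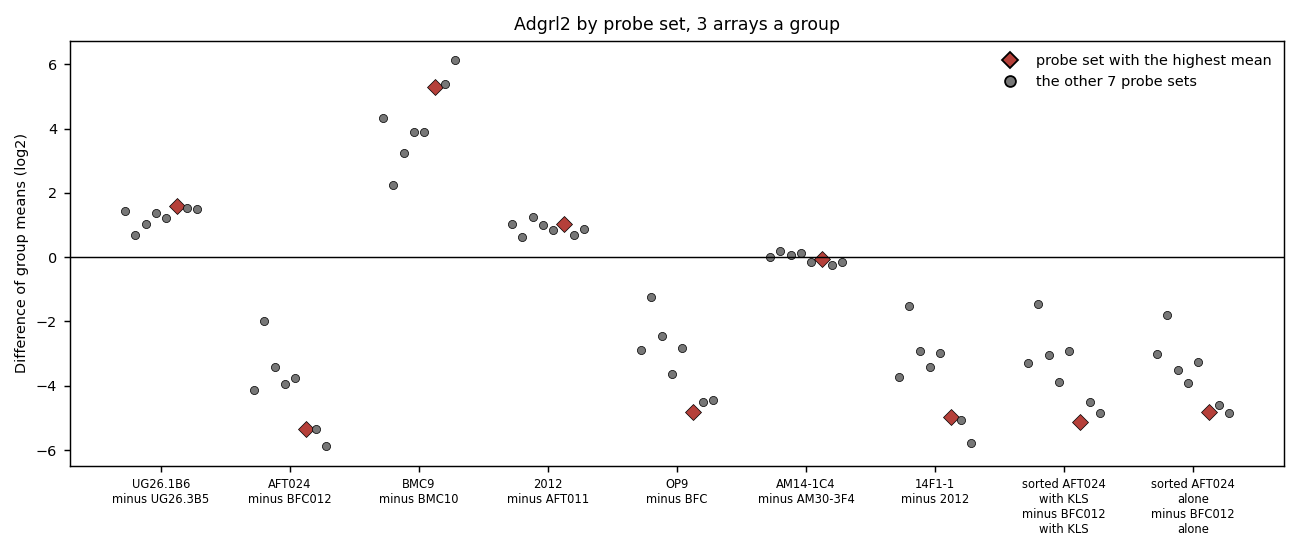
Difference of group means on the log2 scale (vertical axis) of each of the 8 Adgrl2 probe sets in 9 comparisons (horizontal axis), 3 arrays a group, with the probe set used in the text as a diamond. All 8 probe sets lie on the same side of 0 in every comparison except AM14-1C4 against AM30-3F4.

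The genes closest to Adgrl2 over the 17 group means were Hoxb9, a homeobox gene of the trunk (r = 0.853), Mmp16, a membrane-type metalloproteinase (0.815), and Cdkn1b, the cell cycle inhibitor p27 (0.804). Among pairs of the 10 genes the highest correlation was between Tenm3 and Adgrl2 (r = 0.671), and the lowest between Tenm3 and Adgrl3 (r = -0.647), over the same 17 means and as a description. Tenm3 and Adgrl2 were both chosen for a lower level in AFT024 than in BFC012, lines that enter several of the 17 means. The high rank of this pair is therefore not independent of the choice. Tenm3 and Adgrl2 parted in 2012, where Adgrl2 was higher and Tenm3 lower than in AFT011.

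Adgrl1, the receptor of the spider toxin alpha-latrotoxin, moved between lines by up to 2.39. It read 9.20, 9.28 and 9.25 in UG26.1B6, against 8.35, 8.97 and 8.79 in UG26.3B5, higher in all UG26.1B6 arrays (difference 0.54, SE 0.119, limma adjusted p = 0.00198, and 0.101 with the pair's 6 arrays fitted alone). In the BM pair the sign was opposite, with 8.53, 8.65 and 8.61 in BMC9, against 9.28, 9.62 and 9.51 in BMC10 (difference -0.87, SE 0.119, limma adjusted p = 9.45e-07). The AFT024 arrays, 10.37, 10.07 and 10.32, overlapped those of BFC012, 10.17, 9.60 and 9.73, and the difference of 0.42 (limma adjusted p = 0.00629) did not hold under 3 of 13 alternatives. In 2012 the arrays read 9.87, 9.85 and 9.87, against 9.46, 9.46 and 9.45 in AFT011, a small difference without overlap (0.40, limma adjusted p = 0.0104).

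AM14-1C4 had 10.43, 10.36 and 10.28, against 9.16, 9.04 and 9.17 in AM30-3F4, a 2.35-fold higher level of Adgrl1 (difference 1.23, SE 0.119, limma adjusted p = 2.00e-10). 14F1-1 read 7.98, 7.90 and 8.03, all below those of 2012 (difference -1.89, limma adjusted p = 4.30e-15). In this set every step of the order passed: AM14-1C4, then 2012, AFT011, AM30-3F4 and 14F1-1. OP9 and BFC overlapped, at 6.63 ± 0.17 in OP9 and 6.75 ± 0.04 in BFC. The patterns closest to Adgrl1 were those of Gata2, a transcription factor (r = 0.847), Nbea, a scaffold of vesicle traffic (0.839), and Zfp951 (0.835).

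Adgrl3 helps in mice to form synapses with teneurin and FLRT3 partners. It was higher in AFT024 and 2012 than in their non-supportive FL partners, and at dim signal in OP9 than in BFC. It read 6.43, 6.51 and 6.41 in AFT024, against 5.63, 5.53 and 5.45 in BFC012, without overlap (difference 0.91, SE 0.153, limma adjusted p = 1.25e-05). It read 7.55, 7.65 and 7.99 in 2012, against 6.18, 6.13 and 6.28 in AFT011, 2.89-fold higher in 2012 (difference 1.53, SE 0.153, limma adjusted p = 8.83e-10). The OP9 arrays, 3.49, 3.57 and 3.48, lay above those of BFC, 3.21, 2.75 and 3.34 (difference 0.41, limma adjusted p = 0.0342), a call that did not hold under 5 of 12 alternatives. Without BFC replicate 2 the difference was 0.24 (adjusted p = 0.300 in the limma fit). The means of OP9 and BFC, 3.52 and 3.10, both lay below the lower quartile of gene signals in their set, 4.07. The BFC012 mean, 5.54, also lay below that of its set, 5.72.

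Outside FL the pairs by support did not pass for Adgrl3. UG26.1B6 averaged 7.69 ± 0.38, against 7.47 ± 0.31 in UG26.3B5, and BMC9 averaged 8.32 ± 0.22, against 8.49 ± 0.18 in BMC10, both with overlapping arrays. The BMC lines were nevertheless the highest of their set, BMC9 lying 0.64 above UG26.1B6 (limma adjusted p = 0.00159). AM14-1C4 was above AM30-3F4 by 0.46 (6.70 ± 0.10 against 6.25 ± 0.11, limma adjusted p = 0.0196), a call lost under 3 of 13 alternatives. 14F1-1 averaged 5.82 ± 0.12, against 7.73 ± 0.23 in 2012 (difference -1.91, limma adjusted p = 2.26e-12). In the order of that set 2012 was highest, AM14-1C4 came next, and AM30-3F4, AFT011 and 14F1-1 followed without a step that passed. The closest patterns were those of Bach2 (r = 0.813) and Emx2 (0.812), both transcription factors, and Wnt10b, a Wnt ligand (0.805).

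**Figure D4:**
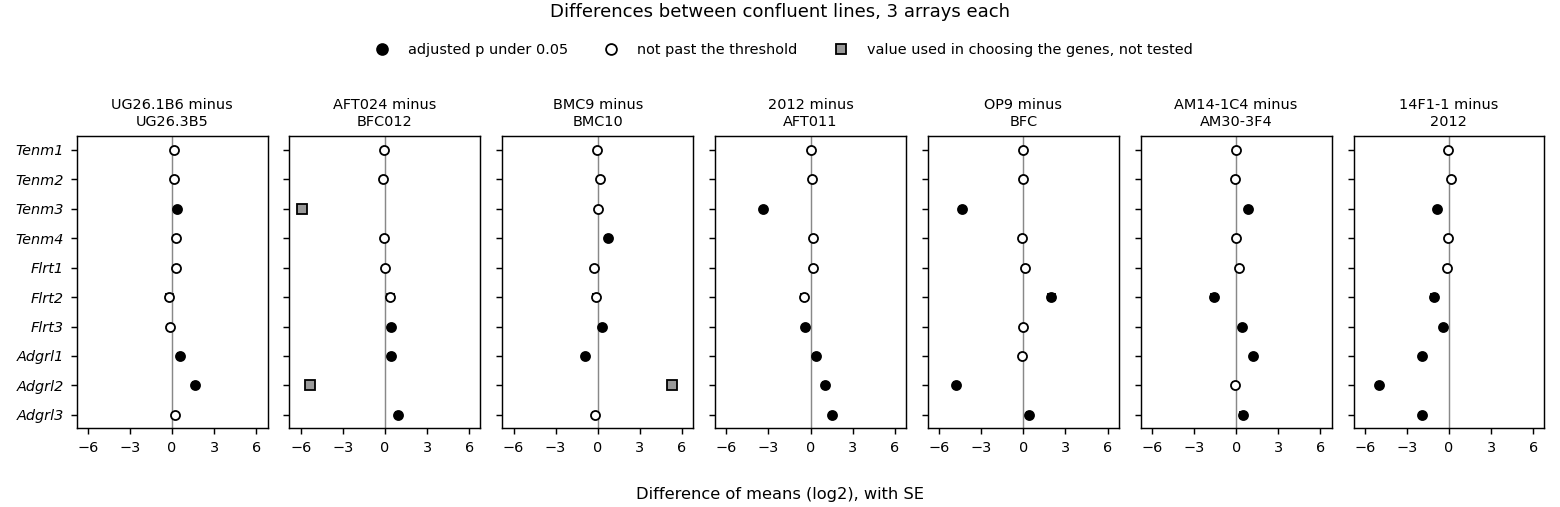
Difference of group means on the log2 scale (horizontal axes, with SE, mostly smaller than the symbol) of the 10 genes (rows) in the 7 comparisons of confluent lines (panels). Filled circles passed the test, open circles did not, and grey squares are the 3 values that helped to choose the genes.

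Counted over the family, UG26.1B6 against UG26.3B5 had 3 higher and 0 lower genes, while 4.34% of all genes were higher and 4.22% lower. AFT024 against BFC012 had 3 higher and 2 lower, the lower ones being Tenm3 and Adgrl2, which carry no test, while 15.6% of all genes were higher and 12.9% lower. BMC9 against BMC10 had 3 higher, with Adgrl2 among them, and 1 lower, beside 7.28% and 8.18% of all genes. 2012 against AFT011 had 3 higher and 2 lower, beside 13.4% and 14.1% of all genes. OP9 against BFC had 2 higher and 2 lower, beside 17.5% and 16.9%. AM14-1C4 against AM30-3F4 had 4 higher and 1 lower, beside 15.9% and 15.8%. 14F1-1 against 2012 had 0 higher and 6 lower, beside 18.1% and 18.5%. With 10 genes a single gene moves the family's share by 10 percentage points, and no test of the family as a list was made.

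The median difference of the 10 genes was 0.24 in the UG26 pair, against 0.03 over all genes, 0.00 against -0.02 in the AFT024 and BFC012 pair, -0.02 against 0.03 in the BMC pair, and 0.14 against 0.07 in 2012 against AFT011. It was -0.03 against 0.01 in OP9 and BFC, 0.09 against 0.01 in the AM lines and -0.63 against -0.04 in 14F1-1 against 2012. The comparisons of 2012 with AFT011 and of 14F1-1 with 2012 share the 2012 arrays.

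Some markers of cell types also differed in these comparisons, and their counts are given beside the shares of all genes. In AM14-1C4 against AM30-3F4, 3 of 16 hematopoietic markers were higher and 0 lower (15.9% and 15.8% of all genes), so the share of higher markers was near that of all genes. Their summed linear signals ran from 2117 to 2334 in AM14-1C4, against 1412 to 1452 in AM30-3F4. Lyz2, the lysozyme of macrophages and granulocytes, averaged 9.36 in AM14-1C4, against 5.37 in AM30-3F4 (difference 4.00), Itgb2, a leukocyte integrin, differed by 1.14, and Csf1r, the receptor of macrophages for CSF1, by 1.06. Of 11 mesenchymal markers 6 were higher and 3 lower there (15.9% and 15.8% of all genes), with sums from 23897 to 24309 in AM14-1C4, against 24274 to 24645 in AM30-3F4. In BMC9 against BMC10, 6 of 11 mesenchymal markers were higher and 1 lower (7.28% and 8.18% of all genes), with sums from 29514 to 36161 in BMC9, against 18614 to 24550 in BMC10. In OP9 against BFC, 6 were higher and 2 lower (17.5% and 16.9% of all genes), with sums from 4598 to 4690 in OP9, against 2381 to 2529 in BFC. The part of these markers in the family's differences was not tested.

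Across lines, no gene of the family passed a test of support. With the means of 12 AGM, FL and BM lines as units, 7 of them supportive, and terms for tissue and normalization set, 0% of all 19938 genes passed in limma, and 950 genes had an unadjusted p under 0.05, none of them in the family. BFC, alone in its set, carried no weight and OP9 was left out. Tenm3 and Adgrl2 are given no estimate, since the AFT024, BFC012, BMC9 and BMC10 means that helped to choose the genes enter it. Of the other 8 genes Tenm4 had the largest estimate, 0.24 (SE 0.137, adjusted p = 0.895 in the limma fit).

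Genes that bind or serve these partners were counted from lists. Of 15 other binding partners 13 were measured. In UG26.1B6 against UG26.3B5 1 was higher and 0 lower (4.34% and 4.22% of all genes), in AFT024 against BFC012 1 and 1 (15.6% and 12.9%), and in BMC9 against BMC10 1 and 1 (7.28% and 8.18%). In 2012 against AFT011 4 were higher and 1 lower (13.4% and 14.1%), and in OP9 against BFC 3 and 0 (17.5% and 16.9%). In AM14-1C4 against AM30-3F4 0 were higher and 3 lower (15.9% and 15.8%), and in 14F1-1 against 2012 1 and 2 (18.1% and 18.5%). Fgfr1, an FGF receptor that FLRT proteins bind, averaged 10.75 in AFT024, against 9.18 in BFC012 (difference 1.57, SE 0.0926, limma adjusted p = 1.15e-15). It averaged 11.12 in 2012, against 10.04 in AFT011 (difference 1.07), and 7.35 in OP9, against 5.66 in BFC (difference 1.68). Fgfr1 was thus higher in the supportive line of each of these 3 comparisons, all against a non-supportive FL line. It did not pass in the UG26 pair or the BMC pair.

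Unc5b, a netrin receptor that binds FLRT2 and FLRT3, averaged 9.94 in AFT024, against 10.89 in BFC012 (difference -0.95, SE 0.252, limma adjusted p = 0.00345). It was also lower in BMC9 than in BMC10 (-0.87), in 2012 than in AFT011 (-0.84) and in AM14-1C4 than in AM30-3F4 (-1.05). Unc5c, its relative, averaged 7.84 in AM14-1C4, against 10.14 in AM30-3F4 (difference -2.30), and 8.48 in BMC9, against 7.33 in BMC10 (difference 1.14). Robo1, a Slit receptor that FLRT3 binds, averaged 7.25 in OP9, against 4.93 in BFC (difference 2.32), 7.07 in AM14-1C4, against 8.81 in AM30-3F4 (difference -1.75), and 9.64 in 14F1-1, against 6.72 in 2012 (difference 2.92). All of these passed the limma test.

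Of 12 genes for latrophilin signalling and scaffolds 11 were measured. In AFT024 against BFC012, 5 were higher and 1 lower (15.6% and 12.9% of all genes), among them Shank3, a scaffold whose family binds latrophilin tails (difference 1.51), and Gna13, the G13 subunit (0.43). In OP9 against BFC 5 were higher and 1 lower (17.5% and 16.9% of all genes), among them Gna11, the G11 subunit (0.79), and in AM14-1C4 against AM30-3F4 2 were higher and 5 lower (15.9% and 15.8%), among them Dlg4, the scaffold PSD-95 (1.40), and Shank2 (-0.96). Counts were 1 higher and 0 lower in the UG26 pair (4.34% and 4.22%), 0 and 2 in the BMC pair (7.28% and 8.18%), 1 and 0 in 2012 against AFT011 (13.4% and 14.1%), and 2 and 4 in 14F1-1 against 2012 (18.1% and 18.5%). Their median difference ran from -0.21 in 14F1-1 against 2012 to 0.34 in AFT024 against BFC012.

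The remaining adhesion G protein-coupled receptors, 24 measured of 26, had 5 higher and 3 lower members in AFT024 against BFC012 (15.6% and 12.9% of all genes). Adgrg1 (GPR56, a collagen-binding receptor) averaged 10.58 in AFT024, against 8.45 in BFC012 (difference 2.13, limma adjusted p = 3.28e-15), and Adgrg6 (GPR126) averaged 6.79 in AFT024, against 8.66 in BFC012 (difference -1.87). In the UG26 pair 1 was higher and 3 lower (4.34% and 4.22% of all genes), and in the BMC pair 1 and 1 (7.28% and 8.18%). Adgrf5 (GPR116) averaged 9.60 in BMC9, against 6.27 in BMC10 (difference 3.33). In 2012 against AFT011, 2 were higher and 3 lower (13.4% and 14.1% of all genes), among them Adgra2 (GPR124), at 10.02 in 2012, against 7.95 in AFT011 (difference 2.07). Counts were 3 higher and 4 lower in OP9 against BFC (17.5% and 16.9%), 3 and 3 in the AM lines (15.9% and 15.8%) and 3 and 3 in 14F1-1 against 2012 (18.1% and 18.5%).

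In sorted stroma the large differences between AFT024 and BFC012 were present again, in other arrays of the same lines. The Tenm3 and Adgrl2 differences between these lines helped to choose the genes. Their p-values in sorted stroma are therefore not independent of that choice. Tenm3 and Adgrl2 were lower and Adgrl3 was higher in AFT024, whether the stroma had been grown with KLS cells or alone. The comparisons of sorted stroma share these 4 groups. Grown with KLS cells, Tenm3 read 5.20, 5.05 and 4.90 in AFT024, against 9.33, 9.18 and 9.23 in BFC012 (difference -4.20, SE 0.201, limma adjusted p = 1.06e-06). Grown alone, it read 4.86, 5.21 and 5.80 in AFT024, against 9.39, 9.81 and 9.72 in BFC012 (difference -4.35, SE 0.201, limma adjusted p = 6.20e-07). The groups were far from overlapping, and the mesothelial markers again moved with Tenm3. With KLS cells 1 of 8 was higher and 3 were lower in AFT024 (6.09% and 5.52% of all genes). Alone 0 of 8 were higher and 5 lower (3.51% and 3.81% of all genes). Their summed linear signal ran from 462 to 600.3 in AFT024 with KLS cells, against 656 to 1053 in BFC012 with KLS cells, and from 475 to 639 in AFT024 alone, against 978 to 1321 in BFC012 alone.

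Adgrl2 read 5.57, 4.77 and 4.83 in AFT024 with KLS cells, against 10.03, 10.21 and 10.32 in BFC012 with KLS cells (difference -5.13, SE 0.399, limma adjusted p = 2.38e-05). It read 4.99, 5.54 and 5.81 in AFT024 alone, against 9.17, 10.78 and 10.82 in BFC012 alone (difference -4.81, SE 0.399, limma adjusted p = 6.15e-05). BFC012 replicate 1 was the lowest of its group and still above every AFT024 array. All 8 Adgrl2 probe sets were lower in AFT024, by -5.13 to -1.45 with KLS cells and by -4.85 to -1.81 alone.

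Adgrl3 read 5.51, 5.69 and 6.13 in AFT024 with KLS cells, against 4.39, 4.67 and 4.42 in BFC012 with KLS cells, higher in all AFT024 arrays (difference 1.28, SE 0.231, limma adjusted p = 0.00461). It read 5.93, 6.74 and 6.78 in AFT024 alone, against 4.61, 5.07 and 4.84 in BFC012 alone (difference 1.65, SE 0.231, limma adjusted p = 0.00179). Adgrl1 passed with KLS cells, at 6.22, 6.81 and 6.79 in AFT024, against 7.30, 7.36 and 7.33 in BFC012 (difference -0.72, SE 0.135, limma adjusted p = 0.00567), and not alone, at 7.19 ± 0.07 in AFT024 and 7.15 ± 0.05 in BFC012. The confluent pair had the opposite sign for Adgrl1, 0.42, in another normalization set.

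Flrt2 had the widest spread of the family in sorted stroma, with an SD of up to 1.45 within a group. Its arrays read 6.96, 6.72 and 6.86 in AFT024 with KLS cells, against 7.15, 8.27 and 9.39 in BFC012 with KLS cells (difference -1.43, SE 0.655, adjusted p = 0.210 in the limma fit). It read 7.47, 7.88 and 8.24 in AFT024 alone, against 7.28, 9.77 and 9.82 in BFC012 alone (difference -1.09, SE 0.655, adjusted p = 0.385 in the limma fit). In both BFC012 groups replicate 1 was the lowest array. In all, 1 gene was higher and 3 lower in AFT024 with KLS cells, where 6.09% of all genes were higher and 5.52% lower, and 1 was higher and 2 lower in AFT024 alone, where 3.51% of all genes were higher and 3.81% lower.

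**Figure D5:**
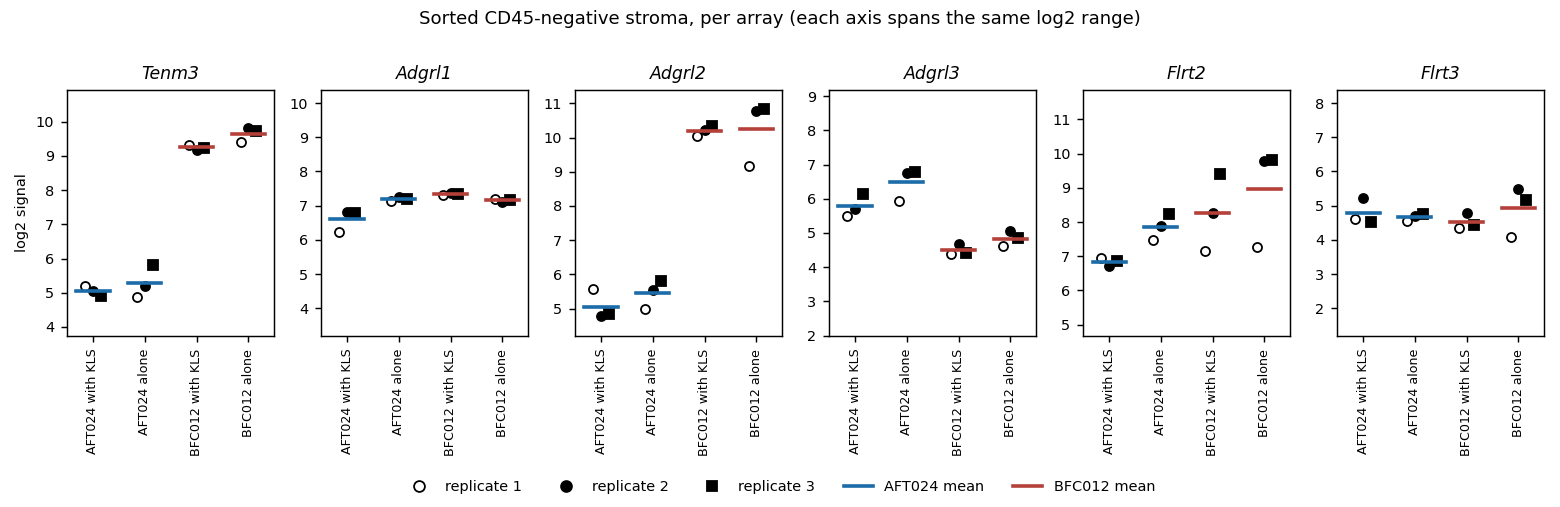
Log2 signal of 6 genes (vertical axes, all spanning the same number of log2 units) in each array of the 4 sorted groups (horizontal axes), with replicate 1 as open circles and a bar at each mean. Tenm3 and Adgrl2 lie far apart between AFT024 and BFC012, and replicate 1 of BFC012 grown alone lies below its fellows in Adgrl2, Flrt2 and Flrt3.

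Without replicate 1 of each sorted group, a choice made after the data were seen, 1 gene was higher and 4 lower in AFT024 than in BFC012 both with KLS cells, where 12.8% of all genes were higher and 11% lower, and alone, where 9.93% were higher and 9.39% lower. Flrt2 then passed in both, with differences of -2.04 (SE 0.275, limma adjusted p = 0.000321) with KLS cells and -1.73 (SE 0.275, limma adjusted p = 0.00128) alone, and Flrt1 passed alone (-0.45, limma adjusted p = 0.0303). Tenm3, at -4.23 and -4.26, Adgrl2, at -5.46 and -5.13, and Adgrl3, at 1.37 and 1.81, kept their direction and passed.

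No gene of the family passed for the response of stroma to KLS cells over all arrays. Over all 6 arrays of each line, 0 of the 10 genes passed in AFT024 with KLS cells against AFT024 alone, where 0.351% of all genes passed, and 0 in BFC012, where 0.883% passed. At an unadjusted p under 0.05 there were 2 genes in AFT024, Adgrl1 and Adgrl3, and 0 in BFC012. Adgrl1 averaged 6.61 ± 0.34 in AFT024 with KLS cells, against 7.19 ± 0.07 in AFT024 alone, lower in all arrays (difference -0.59, SE 0.135, adjusted p = 0.114 in the limma fit), and Adgrl3 averaged 5.78 ± 0.32 in AFT024 with KLS cells, against 6.48 ± 0.48 in AFT024 alone (difference -0.71, adjusted p = 0.288 in the limma fit). The difference between the responses of both lines passed for 0 of the 10 genes and for 0.0401% of all genes, with Adgrl1 at -0.76 (SE 0.191, adjusted p = 0.291 in the limma fit).

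Without replicate 1 of each sorted group the counts differed. In AFT024, 4 genes were then lower with KLS cells than alone, where 3.41% of all genes were higher and 2.65% lower: Adgrl1 (-0.43, limma adjusted p = 0.0237), Adgrl2 (-0.87, adjusted p = 0.00156 by limma), Adgrl3 (-0.85, adjusted p = 0.00917 by limma) and Flrt2 (-1.28, adjusted p = 0.0234 by limma). In BFC012, 1 gene was lower, Adgrl2 (-0.53, limma adjusted p = 0.0152), where 4.2% of all genes were higher and 3.71% lower. The difference between the responses passed for Adgrl1 alone among the 10 (-0.64, SE 0.131, limma adjusted p = 0.0284), where 1.41% of all genes were higher and 1.54% lower, and each group then rests on 2 arrays. Hematopoietic markers, which the sort should remove, summed to 568 to 819 in AFT024 with KLS cells, against 469.7 to 572 in AFT024 alone, and to 505 to 583 in BFC012 with KLS cells, against 462 to 521 in BFC012 alone. Over all arrays 0 of the 16 markers passed in AFT024 (0.351% of all genes) and 0 in BFC012 (0.883%). Cd68, the brightest of them, averaged 8.11 in AFT024 with KLS cells, against 7.01 in AFT024 alone. Coro1a, Cd53, Vav1, Kit and Cd48 averaged lower with KLS cells in AFT024. Ptprc, which encodes CD45, averaged 4.38 in AFT024 with KLS cells, against 4.28 in AFT024 alone, and 4.35 in BFC012 with KLS cells, against 4.31 in BFC012 alone. Their part in these differences was not tested.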

How the data were processed

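RNA extracted with Trizol from 51 samples was read on Affymetrix mouse gene 1.0 ST arrays. What the authors deposited is a log2 signal for each probe set and array. The submitters' processing notes name RMA and Partek, and the sources used here give neither versions nor roles. The 17 groups of 3 arrays came in 4 tables normalized separately, and tests were made only within a table. Of 35556 probe sets, 21789 named 1 gene symbol, 1621 several and 12146 none, through GEO's platform annotation. For each of 19938 genes the probe set with the highest mean was used.

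One limma 3.58.1 model (R 4.3.3) covered the 39 confluent arrays and another the 12 sorted arrays, with a mean per group. P-values were adjusted by Benjamini-Hochberg over all 19938 genes, threshold 0.05. No list was given a test of its own. No values were missing or negative, and no arrays were identical. RMA shrinks differences of dim probe sets, and arrays of 3 per group limit the precision. The scripts were tested on simulated data.

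The members and lists were chosen with earlier results of these data known. Genes named outside the family are the 3 most correlated with each member that spanned at least 2 log2 units, and at most 3 per list and contrast among those that passed, by size. Marker lists were read as sums of linear signals.

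Same-numbered replicates deviated together (all 3 correlations above 0.1) in the UG26 pair (0.535, 0.327 and 0.468), the BMC pair (0.323, 0.116 and 0.435) and sorted stroma grown alone (0.671, 0.517 and 0.466), and not in the other contrasts. The labels do not say what a number shares. Alternatives were another normalization on top of the deposited values, the mean of a gene's probe sets, a filter on dim genes, another variance model, other sets of arrays in the fit, a replicate block and leaving out single replicates or lines.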

Additional observations from a re-analysis of the deposited data

Results flagged for a closer look

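The line pairs of the AGM (UG26.1B6 minus UG26.3B5), the FL (AFT024 minus BFC012) and the BM (BMC9 minus BMC10) were set against each other. Adgrl1 passed in each pair, not always in the same direction. For Adgrl2 and Tenm3 the opposite directions rest on values that helped to choose the genes, and are a description. Adgrl1 was higher in UG26.1B6 and in AFT024 and lower in BMC9, each against its partner, and the difference of differences was 1.42 between the AGM and BM pairs (limma adjusted p = 9.31e-08) and 1.29 between the FL and BM pairs (limma adjusted p = 1.94e-07). Adgrl2 was higher in UG26.1B6 and lower in AFT024, 6.93 apart, and the FL and BM pairs differed by -10.63. Tenm3 was higher in UG26.1B6 and lower in AFT024, 6.26 apart. The Tenm3 means of UG26.1B6 and UG26.3B5, 5.59 and 5.26, both lay below the lower quartile of gene signals in their set, 5.72. That difference did not pass with the pair's 6 arrays fitted alone (limma adjusted p = 0.0543). The values of Adgrl2 and Tenm3 were not tested, since their differences helped to choose the genes. Pairs also differed for genes whose own difference passed in 1 pair of the 2: Flrt3 by -0.61 between the AGM and FL pairs (limma adjusted p = 0.000748) and -0.46 between the AGM and BM pairs (limma adjusted p = 0.0204), Adgrl3 by -0.70 between the AGM and FL pairs (limma adjusted p = 0.0159) and 1.08 between the FL and BM pairs (limma adjusted p = 0.000192), and Tenm4 by -0.76 between the FL and BM pairs (limma adjusted p = 0.00313).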

How the results depend on the processing

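Of 36 differences of single genes that passed, leaving out the 3 that helped to choose the genes, recomputed 470 times in all under the alternatives, 447 values kept their direction and their side of the threshold, 23 kept their direction and no longer passed, and 0 reversed. With only the 6 arrays of the pair in the fit, 1 gene of the family passed in the UG26 pair in place of 3, and 2 in the BMC pair in place of 4. Over all genes those fits called 748 in place of 1707 and 1296 in place of 3082. In AFT024 against BFC012 such a fit gave 4 genes of the family in place of 5 (3904 of all genes in place of 5685). In 2012 against AFT011 it gave 6 in place of 5 (4873 in place of 5493). In the AM lines it also gave 6 in place of 5 (8598 in place of 6308). The cause of these shifts was not tested. With replicate 1 of every sorted group left out, an alternative added after seeing the data, 5 genes of the family passed in place of 3 between AFT024 and BFC012 grown alone, 4 in place of 0 for KLS cells in AFT024, 1 in place of 0 for KLS cells in BFC012 and 1 in place of 0 for the difference of these responses; the cause was not tested. Leaving out single arrays gave 3 to 5 genes of the family for AFT024 against BFC012 grown alone, the 5 being reached without replicate 1 of BFC012 grown alone, and 0 to 0 for the responses to KLS cells. Leaving out single lines gave 0 to 0 for support across lines. All genes then ranged from 749 to 2241 (main 1459) for AFT024 against BFC012 grown alone, from 1381 to 2732 (main 2314) with KLS cells, from 22 to 149 (main 70) and from 70.0 to 373 (main 176) for KLS cells in AFT024 and in BFC012, and from 0 to 46 (main 8) for the difference of these responses. With the replicate block, 4 genes of the family passed in the UG26 pair, with Tenm4 added, 3 in the BMC pair and 3 for AFT024 against BFC012 grown alone. In 2012 against AFT011 the block gave 6 in place of 5, with Flrt2 added. The pair's 6 arrays gave 6 without a block too. Only Flrt3 in the BMC pair lost its call under the block (limma adjusted p = 0.0702), and over all genes the block with only the pair's arrays called 3152 for AFT024 against BFC012 grown alone.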
